A study of Saccharomyces cerevisiae BY4741 with 4 samples.

Results

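Among the genes with a level, the 280 described here carried the least histone H3 trimethylated on lysine 4 (H3K4me3) in wild-type budding yeast. They were chosen by a measured value, a normalised H3K4me3 level below 0.70 in the wild-type library. They made up 5.37% of the 5218 genes with a wild-type level. Of 6002 annotated coding genes outside the mitochondrial genome, 5112 had such a level, and the others are not covered here. The cells were Saccharomyces cerevisiae BY4741, a haploid of mating type a with the alleles his3Δ1, leu2Δ0 and ura3Δ0, taken in log phase from rich glucose medium. The second strain, BY4741-spp1Δ, called spp1Δ or the deletion strain below, carried KanMX6 in place of SPP1, which encodes a subunit of the H3K4 methyltransferase complex COMPASS. Cells of fission yeast were mixed in as a spike-in for scaling. Of the 4 libraries, the 2 H3K4me3 libraries entered the gene table, 1 per strain, so no value below has a replicate error and no difference between strains was tested. The SPP1 gene itself had 1.89 in wild type and 0.0982 in the library labelled as its deletion. How many reads stand behind a level is unknown. A level in both strains was present for 270 of the 280 genes. The other 10 lie on chromosome IX, where none of the 180 genes of the table had a level in the deletion strain.

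COMPASS follows RNA polymerase II and places H3K4me3 on nucleosomes in the 5′ part of transcribed genes, so a gene that is seldom transcribed usually carries little of the mark. In glucose medium, yeast represses genes for the use of other carbon sources through Snf1, Mig1 and their targets. Haploid cells of type a also keep genes of the opposite mating type and most genes of meiosis and spore formation silent. Genes for stress protection, for reserve carbohydrates and for the uptake of scarce nutrients are induced only when they are needed.

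Levels of the 280 genes ran from 0.248 to 0.6995 in wild type, with a median of 0.477 and a middle 50% of 0.387 to 0.567. That median was 23.7% of the median over all genes, 2.01. No gene had a level of 0, and what level chromatin without the mark would give was not measured in the values used here, so the genes are called lowly marked rather than unmarked. The threshold did not fall in a gap of the distribution. Just inside it lay the vacuolar ATPase subunit gene VMA5 at 0.6995, MCO32 at 0.698, the pair YOR161W-A and YOR161W-B at 0.697 each, and HBT1 at 0.693. Both levels of that pair were identical, so they are not separate measurements. Just outside it lay UGP1, which encodes the enzyme that makes UDP-glucose, and SDH6, both at 0.702, then YNL109W at 0.704, PIG1 at 0.709 and ICS2 at 0.711.

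**Figure D1:**
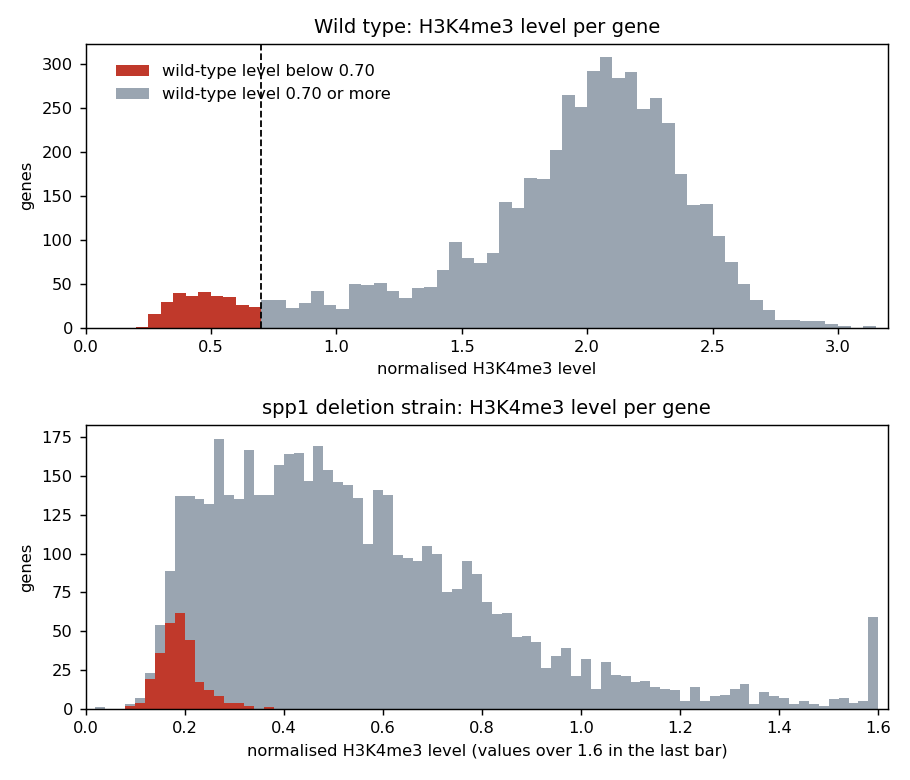
Number of genes (y axis) by normalised H3K4me3 level (x axis) in wild type (top) and in the spp1 deletion strain (bottom), with genes below 0.70 in wild type in red and all others in grey. The red genes end at the dashed line because that level chose them, and in the deletion strain they lie between 0.0814 and 0.373, at the low end of all genes.

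The lowest 10 wild-type levels belonged to genes of several kinds. SFC1 (chromosome X, 609773 to 610741), the succinate and fumarate carrier of mitochondria that serves growth on acetate and ethanol, was lowest with 0.248 in wild type and 0.194 in spp1Δ. The stress protein gene HSP12 (VI, 107256 to 107585) had 0.258 and 0.155, and DDR2, another stress-induced gene, had 0.264 and 0.128. ZNF1 (VI, 28232 to 29629), which encodes a zinc cluster regulator of respiratory growth, had 0.267 and 0.161. The others were DPA10 (0.267 in wild type) and HBN1 (0.273), with YMR206W (0.253), YCL048W-A (0.268) and YKR104W (0.276), which have no gene symbol, and YMR316C-B (0.252), which has no gene in the annotation used. Levels in the deletion strain over these 10 genes ranged from 0.128 to 0.194.

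Of the 280 genes, 104 (37.1%) stood on at least 1 of 29 lists, against 7.95% of all measured genes. The lists were written from general knowledge of this organism, but with earlier results of these data known. Shares of listed genes are therefore a description and no independent support. A further 57 of the 280 genes were grouped by function after their values had been seen, and 48 had a symbol but no group. The remaining 53 were annotated without a symbol, and 18 had no gene in the annotation. Genes without a symbol made up 18.9% of the lowly marked genes and 6.78% of all genes, and names without an annotated gene 6.43% and 1.97%. Of all 103 names without an annotated gene, 17.5% were lowly marked. The shares below are to be read against the 5.37% of all genes that were lowly marked.

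Among the genes repressed by glucose, 20 of 42 measured (47.6%) were lowly marked. The galactose list had 5 of 6. In wild type GAL2, the galactose permease gene, stood at 0.339 and without Spp1 at 0.177, and the galactokinase gene GAL1 (II, 279021 to 280607) had 0.369 and 0.153. GAL7, the transferase gene, had 0.506 and 0.180. The regulator genes of the pathway were the highest of the 5, with GAL4 (the activator) at 0.592 and GAL3 (the galactose sensor) at 0.645. GAL80, the gene of the repressor that holds Gal4 inactive without galactose, was outside the set with 1.66 in wild type and 0.453 in spp1Δ. GAL10 was not analysed here. In this pathway the enzyme and permease genes thus had the lowest levels, and the gene of the inhibitor had the highest.

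On the list for gluconeogenesis, glyoxylate metabolism and growth on acetate or ethanol, 13 of 21 measured genes were members. After SFC1 came SIP4, an activator of gluconeogenic genes, at 0.283 in wild type and at 0.170 in spp1Δ. CRC1, the mitochondrial carnitine carrier gene, had 0.304 and 0.202, and MLS1 (XIV, 406358 to 408022), the malate synthase gene of the glyoxylate cycle, had 0.331 and 0.133. These lie in the lowest part of the set. FBP1, the phosphatase gene of gluconeogenesis, was higher with 0.555 and 0.181, and ADR1, the activator of ADH2 and of peroxisomal genes, had 0.659 and 0.154. ADH2 itself, the alcohol dehydrogenase gene for ethanol use, lay in between with 0.468 and 0.183. The other members were IDP2, CIT3, YAT2, REG2, ATO2 and PUT1, at 0.429 to 0.564 in wild type. The list was not uniformly low. ICL1, the isocitrate lyase gene that acts beside MLS1, had 1.77 in wild type, MDH2 had 1.82 and DAL7 had 2.04. Of the maltose and sucrose list 2 of 7 were members, the isomaltase gene IMA5 at 0.285 and the activator gene MAL33 at 0.421, while the invertase gene SUC2 had 1.54. None of the 8 measured genes of fatty acid oxidation was a member. Their levels ran from 0.797 to 1.82.

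**Figure D2:**
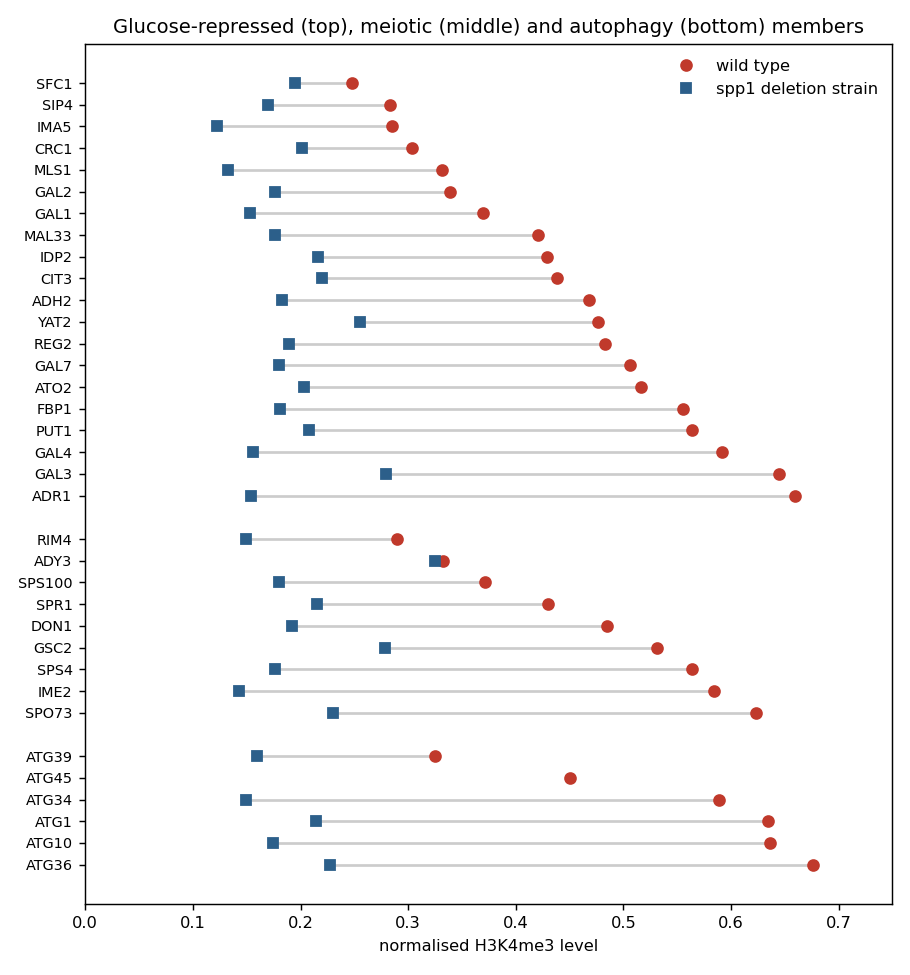
Normalised H3K4me3 level (x axis) in wild type (red circles) and in the spp1 deletion strain (blue squares) of the lowly marked genes of 3 groups, 1 gene per line. Wild-type levels run from 0.248 (SFC1) to 0.676 (ATG36), while levels in the deletion strain lie between 0.122 and 0.324 with no like order, and ATG45 on chromosome IX has no level there.

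Transport genes gave 26 of 109 measured (23.9%). Of the hexose transporters 2 of 7 were members, HXT7 (high affinity) with 0.381 in wild type and 0.196 in spp1Δ, and HXT4 with 0.462 and 0.136. HXT1 and HXT3, the low-affinity carriers used at high glucose, had 1.47 and 1.42 in wild type. HXT7 has a near-identical copy, so its value is uncertain. Metal uptake gave 7 of 26. The metalloreductase genes FRE2, FRE3, FRE4 and FRE7 had 0.437, 0.399, 0.554 and 0.402 in wild type, and the iron mannoprotein genes FIT3 and FIT2 had 0.301 and 0.595. FRE3 and FRE2 were also among the lowest in the deletion strain, with 0.111 and 0.133. FRE1, the main surface reductase, had 1.55, so members of this family lay on both sides of the threshold.

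Amino acid and peptide permeases gave 6 of 30, from PUT4 (proline) at 0.303 to AGP3 at 0.686, with ALP1, PTR2, OPT2 and YCT1 between them. The general permease gene GAP1 had 0.851 and the lysine permease gene LYP1 had 2.47. Vitamin and nucleobase carriers gave 4 of 13 (THI72 0.338, NRT1 0.392, BIO5 0.447, THI73 0.534). Drug exporters gave 3 of 19, with the ABC transporter gene PDR15 (IV, 1279210 to 1283799) at 0.310, AZR1 at 0.408 and the polyamine exporter gene TPO2 at 0.534. PDR5, a relative of PDR15 with a major part in drug resistance, had 2.47. On the list for transport of phosphate, other ions and water, 4 of 14 measured genes were members. These were the aquaporin family genes AQY3 (0.333), AQY1 (0.370) and AQY2 (0.514), and PHO89, a phosphate carrier gene (0.573). AQY2 overlaps the annotated gene YLL053C, which was also a member (0.469), so their levels may share reads.

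Of the meiosis and sporulation lists, 9 of 34 measured genes (26.5%) were members. RIM4 (VIII), an RNA-binding regulator of meiosis, had 0.289 in wild type and 0.149 in spp1Δ, and the meiotic kinase gene IME2 had 0.584 and 0.143. The spore wall genes SPS100 and SPR1 had 0.371 and 0.430 in wild type. ADY3, which acts at the prospore membrane, had 0.332 in wild type and 0.324 in spp1Δ, 97.7%, the highest ratio of the set. It lies on the left arm of chromosome IV, where the deletion-strain levels of 212 genes ran from 0.0348 to 9.71 and 17 genes lay above their wild-type level, against none of 4826 genes elsewhere. NDE2 on the same arm had the next highest ratio, 82.3%. The others were DON1 (0.485), GSC2 (0.531), SPS4 (0.564) and SPO73 (0.623). Other measured genes of these lists ran from SPO23 at 0.756, just above the threshold, to CLB4 at 2.30. Among them IME1, the master regulator of meiotic entry, had 1.21, SMK1 had 1.68 and REC107 had 2.26. The median of all measured genes of these lists was 1.28, against 2.01 over all genes. Only 9 of 39 listed early meiosis genes and 25 of 64 listed sporulation genes were measured. The lists also hold the cyclin genes CLB1, CLB3, CLB4, CLB5 and CLB6, which are not confined to meiosis, at 1.15 to 2.30 in wild type. No rule for meiotic genes is drawn from these lists. GIP1, which encodes a phosphatase subunit for spore formation and was grouped later, had 0.303.

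Among cell type genes only STE3 of 22 measured (4.55%) was a member, which is near the share over all genes. STE3 encodes the receptor for a-factor on cells of type α, and it had 0.427 in wild type and 0.178 in spp1Δ. Its counterpart STE2, the α-factor receptor gene of type a cells, had 0.944 and 0.323. That order follows the labelled mating type. The α-agglutinin gene SAG1, also specific to type α, did not follow it and had 2.23 in wild type. Of the type a genes, MFA2 was nearest to the threshold at 0.734 and MFA1 had 2.51.

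Cell surface genes gave 16 of 37 (43.2%). The TIR genes, which encode wall mannoproteins induced by cold and low oxygen, were all members. TIR3 had 0.370 in wild type, TIR2 0.470, TIR1 0.476 and TIR4 0.624. All 3 measured seripauperin genes were members too, PAU17 at 0.397, PAU5 at 0.421 and PAU23 at 0.433. Genes of this family are much alike in sequence, so their values are uncertain. The PIR genes, for wall proteins linked to glucan, had 3 members, PIR5 (0.428), PIR3 (0.447) and PIR1 (0.683). HSP150 and CIS3, also of the PIR family, were outside the set with 0.924 and 1.99. UTH1, SPI1, HPF1, NCA3, PRY2 and CWP1 completed the group at 0.443 to 0.655. In the same list CCW12, an abundant wall protein gene, had 1.10 and SCW4 had 2.33.

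Of the stress and heat genes, 20 of 53 measured (37.7%) were members. Besides HSP12 and DDR2, the lowest were GAC1, a phosphatase subunit for glycogen synthesis, with 0.309 in wild type and 0.229 in spp1Δ, and GND2, of the pentose phosphate pathway, with 0.320 and 0.227. FMP45 had 0.336, SPG4 0.362 and the glycogen phosphorylase gene GPH1 0.368, and the highest member was HSP31 at 0.662. The chaperone gene HSP26 had 0.488 in wild type, while HSP104 and HSP82 had 1.54 and 1.66. Reserve carbohydrate genes recurred among those grouped later, with GIP2 at 0.326, IGD1 at 0.520, PIG2 at 0.536 and the trehalase gene ATH1 at 0.545. Among nitrogen genes 4 of 19 were members, in a narrow range of 0.556 to 0.579 (DAL3, UGA2, GDH3, DAL80). The rest of this class were ANB1 (0.415), of translation factor eIF5A in low oxygen, and SNZ1 (0.360), of vitamin B6 synthesis. The phosphate regulon list had 0 of 12 members and the sulfur, copper and arsenic list 0 of 10.

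Lists of highly transcribed genes served for contrast, and 3 of 46 measured (6.52%) were members, which is near the share over all genes. All 3 encode minor isoforms of glycolysis or fermentation enzymes: PDC6 (0.293), PDC5 (0.593) and TDH1 (0.626). The major isoform genes PDC1 and TDH3 had 1.68 and 1.33 in wild type. PYK2 and TDH2, isoform genes of the same list, were not members and had 1.38 and 1.54, both above TDH3. None of 18 translation genes and none of 9 histone genes was a member. Of genes in families near chromosome ends, 3 of 12 were members, CSS1 (0.382), AAD10 (0.457) and IMD2 (0.623).

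**Figure D3:**
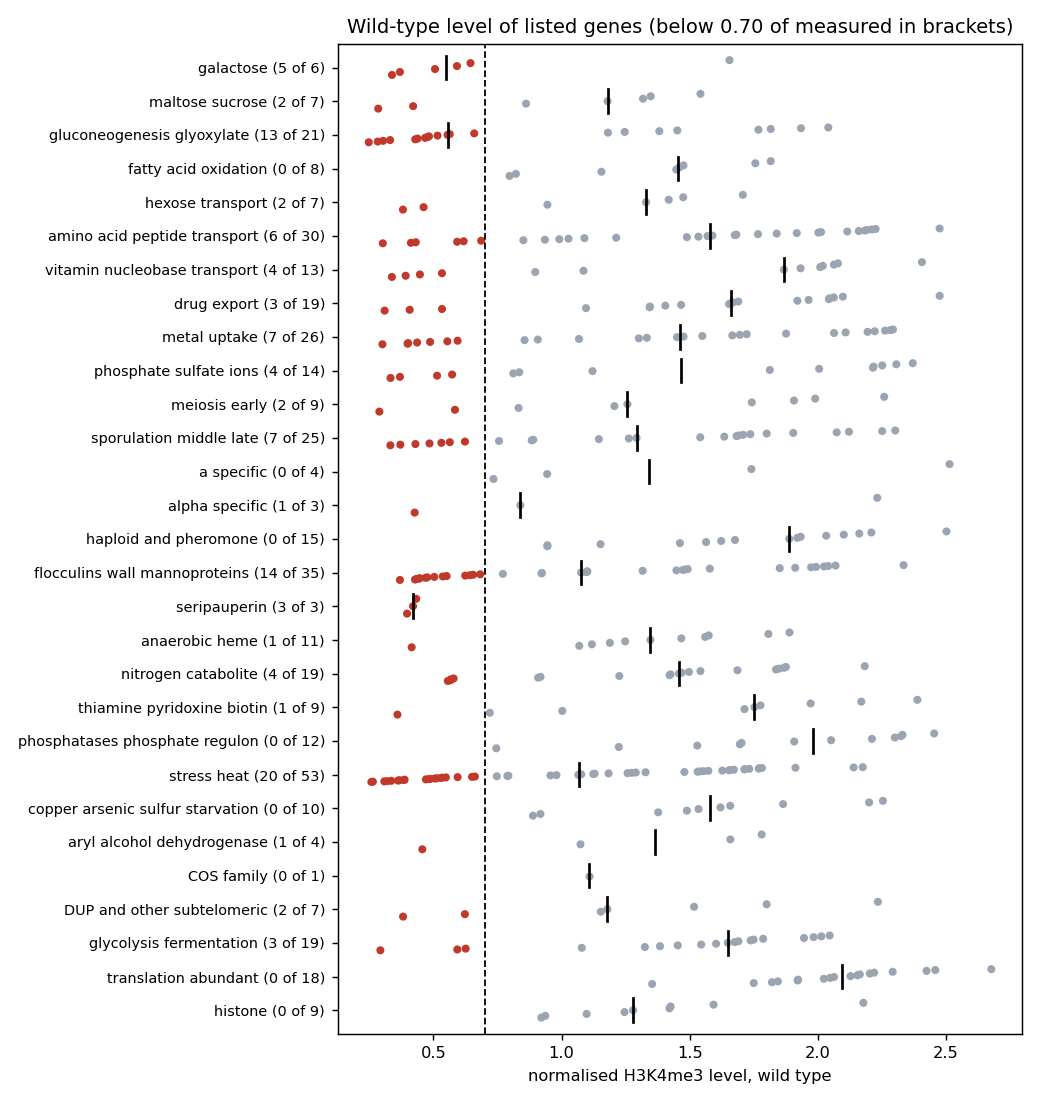
Normalised H3K4me3 level in wild type (x axis) of each measured gene of the 29 lists, with lowly marked genes in red, other genes in grey and the list's median as a black bar; a gene may stand on more than 1 list. Apart from the 3 seripauperin genes, every list with members also has genes to the right of the dashed line at 0.70.

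Groups put together after the values had been seen held further genes of like kinds. Carbon and respiration genes numbered 12, among them the NADH dehydrogenase gene NDE2 (0.363), the xylulokinase gene XKS1 (0.521), the mitochondrial malate dehydrogenase gene MDH1 (0.553) and the respiratory activator gene HAP4 (0.671). Regulators numbered 9, with the kinase genes RCK1 (0.327) and MRK1 (0.406), the stress activator gene MSN4 (0.371) and the post-diauxic regulator gene GIS1 (0.624). Genes of autophagy numbered 6. The receptor gene for nuclear autophagy, ATG39, had 0.325 in wild type, ATG45 had 0.450 and ATG34 had 0.589. ATG1, the kinase that starts the process, had 0.634, ATG10 had 0.636 and the pexophagy receptor gene ATG36 had 0.676.

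A last group of 15 genes has housekeeping roles, and was likewise picked out after its values were seen. SLS1 (XII, 421542 to 423473), for mitochondrial gene expression, had 0.323 in wild type and 0.130 in spp1Δ. TOA2 (XI, 330166 to 330534), a subunit of the general transcription factor TFIIA, had 0.457 and 0.165. DHR2, a helicase gene of ribosome assembly, had 0.491 and 0.178, and ACC1, the acetyl-CoA carboxylase gene, had 0.648 and 0.215. TOA2 stood between genes with wild-type levels of 2.26 and 2.14. LSM5 (V, 462585 to 462866), for an RNA-binding ring of mRNA decay and splicing, had 0.504 and 0.0845, and it overlaps another annotated gene.

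In the deletion strain the 270 genes had a median level of 0.187, with a middle 50% of 0.162 to 0.210, against a median of 0.494 over all 5038 genes with both levels. None lay above that median, and 2 lay above the lower quartile of all genes, 0.331. Below the 10th percentile of that library, 0.228, lay 230 of the 270 (85.2%), and they made up 45.6% of all 504 genes there. So the lowly marked genes were low in both libraries. The lowest were GTT3 (V, 123657 to 124670) with 0.0814, then LSM5 with 0.0845 and AQY3 with 0.105. FRE3 (0.111), YFL012W (0.113) and YCL021W-A (0.114) came next outside chromosome IV left. GTT3 and LSM5 lay below the 0.0982 of SPP1, the gene labelled as deleted, so their levels and ratios need particular caution. Outside chromosome IV left, the highest were IES6, a subunit gene of the INO80 chromatin remodeller, with 0.373, and TPO2 with 0.337. COQ21 (0.309), YLR112W (0.304), PST1 (0.301) and TUL1 (0.301) followed.

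The upper quartile of these genes was 1.30 times the lower in the deletion strain and 1.47 times in wild type, where the threshold itself bounds their range. Over all genes it was 2.12 and 1.33 times. Genes below 0.40 in wild type had a median of 0.336 there and of 0.173 in the deletion strain. From 0.40 to 0.55 the medians were 0.477 and 0.190, and from 0.55 to 0.70 they were 0.617 and 0.193. Above the threshold, genes from 0.70 to 0.85 had a median of 0.210 in the deletion strain and those from 1.0 to 1.5 one of 0.263. Across the 270 genes, which share 2 libraries and are not replicates, the Spearman correlation of both levels was 0.24, and over all genes it was 0.76. Since the set was cut on 1 of the 2 levels, its narrower range alone can lower that value, and nothing is read from the gap.

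**Figure D4:**
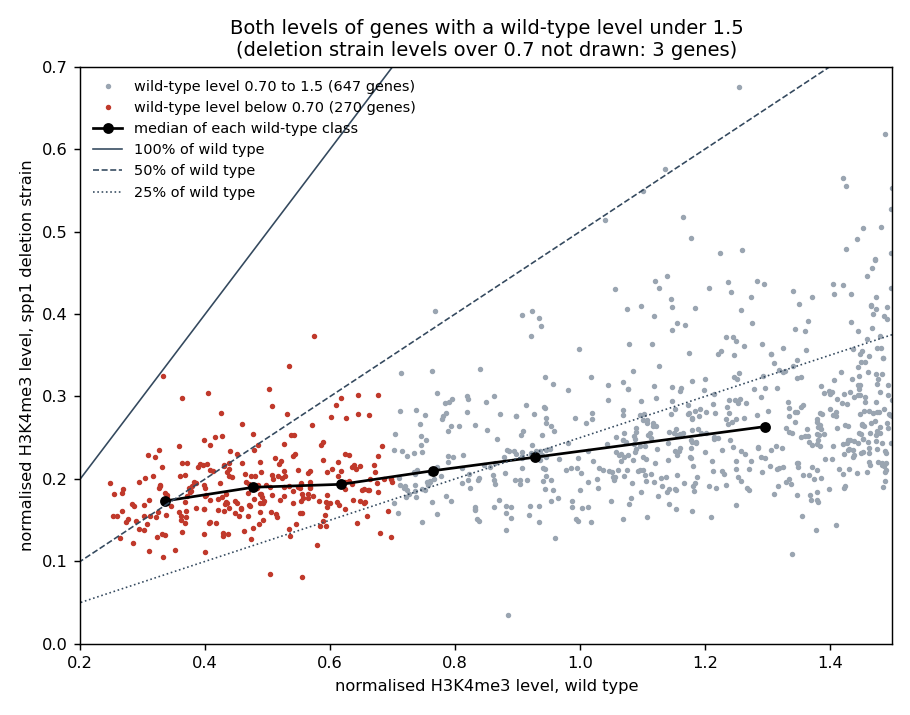
Level in the spp1 deletion strain (y axis) against level in wild type (x axis) for genes under 1.5 in wild type, red below 0.70 and grey above, with class medians in black and lines at 100%, 50% and 25% of wild type. The class medians go from 0.173 to 0.193 below the threshold while wild-type medians go from 0.336 to 0.617, so the red points cross the 50% line from above as wild-type level increases.

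Ratios of such low levels need caution, and since wild-type level chose the genes, they are given as a description. The median gene of the set kept 39.4% of its wild-type level, against 26.3% over all genes. Below 50% of wild type lay 207 of 270 (76.7%), against 93.8% of all genes, and below 25% lay 11 (4.07%), against 44.6%. The median share was 51.4% for genes below 0.40 in wild type, 39.2% for the next class and 31.3% for the class up to 0.70. It went on to 27.9% and 24.8% in the classes just above the threshold, and to 20.8% from 1.0 to 1.5. In the highest classes, which hold most genes, it was larger again, 22.7% from 1.5 to 2 and 28.9% above 2. The highest ratios outside chromosome IV left were those of SFC1 (78.4%), YLR112W (75.1%), GAC1 (74.4%), RCK1 (71.9%), YMR206W (71.8%) and GND2 (70.9%), and 5 of these 6 had wild-type levels below 0.33. The lowest were those of GTT3 (14.7%), LSM5 (16.8%), MCO32 (18.6%), PCC1 (19.8%), DAL80 (20.7%) and PRY2 (22.9%), all above 0.50 in wild type. When both libraries were set to an equal sum instead, 85.6% of the set lay above wild type, against 38.4% of all genes, so the direction of these ratios rests on the authors' scaling.

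Coordinates were known for 262 of the 280 genes. Within 30 kb of the outermost annotated gene end of a chromosome lay 33 (12.6%), against 3.79% of the 5115 measured genes with coordinates. Of the 24 measured genes within 10 kb, 9 were lowly marked (37.5%), and from 50 to 100 kb 22 of 713 were (3.09%). Most of the set, 229 genes, nevertheless lay farther than 30 kb from an end, where 4.65% of genes were members. Of 404 coding genes annotated within 30 kb, 193 were in the table, so the ends are covered only in part. By chromosome, the share ran from 1 of 70 genes on I (GDH3) to 31 of 272 (11.4%) on XI. Chromosome XV held the largest number, 39.

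The stretch before the start of these genes was long. Their median distance from the annotated start to the next annotated gene upstream was 664.5 bases, against 416 over all genes, and 76 (29.0%) had more than 1000 bases there, against 9.76% of all genes. Downstream the medians were 399.5 and 288. Among genes with at least 200 and under 400 bases upstream 2.01% were members, and among those with 1500 or more 20.5% were. FRE3 had 2614 bases and ZNF1 3033, and HPF1 and ZPS1 face each other across 3051. RNA genes counted as neighbours here. At the other extreme 10 of the 45 genes with no base between them and the next gene were members, of which 6 overlapped a coding gene (LSM5 and YLL053C among them) and 4 did not. GAL1 and GAL4 are among those 4, and an annotated antisense RNA overlaps each (II, 276805 to 280645, and XVI, 79562 to 82648). With coding genes alone as neighbours GAL1 had 668 bases and GAL4 268, the medians were 691.5 and 438, and the shares over 1000 bases were 30.5% and 12.4%. The annotated span, which holds coding sequence and introns, had a median of 1038 bases, against 1230 over all genes, and 10.3% were shorter than 300 bases, against 3.42%. The window the authors averaged over is not stated, and its bearing on these short genes was not tested.

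**Figure D5:**
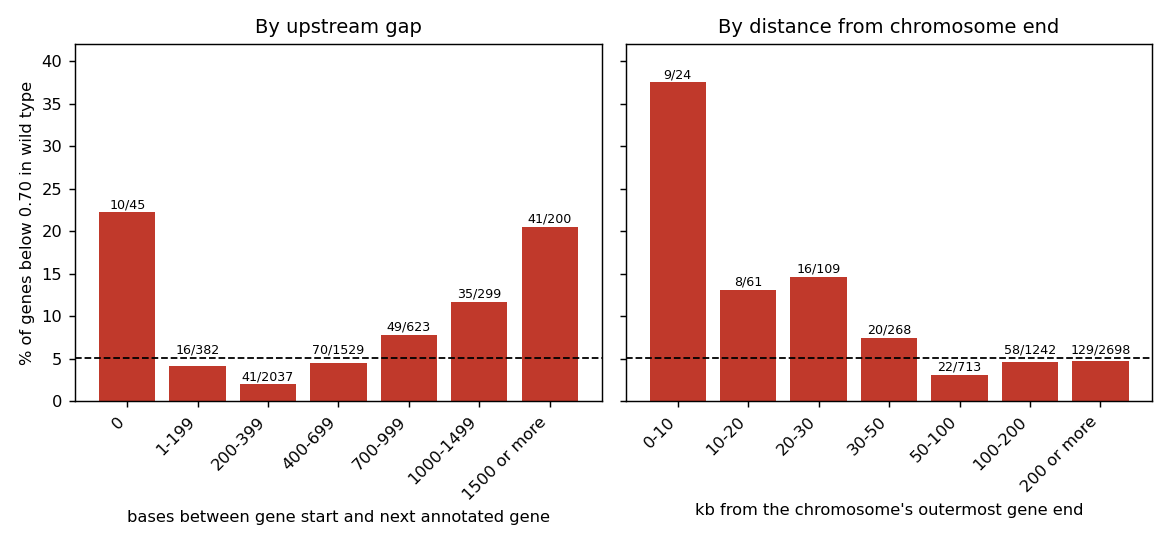
Share of measured genes that were lowly marked (y axis, %) by the number of bases between the gene's start and the next annotated gene (left) and by distance from the chromosome's outermost gene end (right); numbers over bars are lowly marked and all genes, and the dashed line is the share of all genes with coordinates, 5.12%. On the left the share is highest at 0 bases (22.2%), lowest between 200 and 400 bases (2.01%) and 20.5% at 1500 or more. On the right it is 37.5% within 10 kb of an end.

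Neighbours of lowly marked genes were lowly marked more often than neighbours of other genes were. Of the 262, 209 had no lowly marked gene next to them among the measured genes, and 53 formed 23 groups of adjacent genes. Adjacent here means next to each other among measured genes, so genes without a level can lie between them, as between GAL7 and GAL1. The share of other genes without such a neighbour was not computed here. Of the measured neighbours of a member 11.6% were members themselves, against 4.71% of the neighbours of other genes, and the neighbours' median wild-type level was 1.83 against 2.02. On chromosome XV, HPF1, ZPS1, FRE7 and GRE2 (28703 to 44722) followed each other, and so did FRE3, YOR381W-A, FIT2 and FIT3 (1055545 to 1061055) at the other end, where reductase and mannoprotein genes for iron uptake lie together. The groups of 3 were AGP3, AQY3 and ZNF1 on VI (17004 to 29629), YGR050C, FMP48 and MCO32 on VII, and CRS5, HMS1 and YOR032W-A on XV. Pairs included GAL7 with GAL1, PIR1 with PIR3, TIR4 with TIR2, PAI3 with SIP18, and CIT3 with PDH1. Of the members with a measured neighbour on both sides, 34 (13.4%) stood between neighbours that both had levels above 2, against 28.3% of all genes. HSP12, at 0.258, lay between genes at 2.20 and 2.33, MLS1 between 2.48 and 2.16, and FBP1 between 2.10 and 2.16. At these 3 places a single measured gene was low.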

How the data were processed

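H3K4me3 was measured by MNase chromatin immunoprecipitation and sequencing, 1 library per strain, per the labels' protocols. The authors deposited 1 normalised H3K4me3 signal per gene and strain, per the file headers. Bowtie2, SAMtools and bedtools with builds sacCer3 and ASM294v2 are named in the submitters' processing notes; no source states versions, the part of the gene averaged or the use of the input. The input library and the spp1 library whose title names no assay were not used here, and 3 lines of the table had been emptied before this work.

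Levels entered unfiltered and without a pseudocount, in Python 3.11.15 with pandas 2.3.3, and counts were checked on simulated levels. Names were matched to RefSeq genes of assembly R64 (1-based coordinates). Of annotated spans 97.0% were multiples of 3 bases, so they hold no UTRs. With no read counts and 1 library per strain, no test was run. The members, lists and settings were chosen with earlier results of these data known. Named genes are the 10 lowest, the 5 on each side of the threshold, list members (in lists of over 15, the 5 lowest and the highest, with others named for contrast), extremes in the deletion strain outside chromosome IV left, and groups of adjacent genes. Genes beyond this rule were picked after their values were seen. Promoter motifs and protein features were planned and not analysed here.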

Additional observations from a re-analysis of the deposited data

How the results depend on the processing

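With 1 library per strain no replicate could be left out. The number of members was 231 at a threshold of 0.60, 342 at 0.80 and 279 with identical levels counted once. The members' median share of wild type was 57.4% with a pseudocount of 0.201, 32.0% after subtracting the 1st percentile of each library (194 members left), 41.8% at a threshold of 0.60 and 37.1% at 0.80. Scaled to equal sums of the libraries it turned to 133.5%. Members below 50% of wild type numbered 60 with the pseudocount, 132 of the 194 left after subtraction and 1 with equal sums. The last multiplies every ratio by 1 factor, while the others change low levels most. Leaving out chromosome IV left gave 39.6% and 202. Within 20 kb of a chromosome end lay 6.49% of members and within 50 kb 20.2%, against 1.66% and 9.03% of all genes. Median gene length (1047 to 1071 bases), the share on a list (33.0% to 39.4%) and the upstream distance (646 to 700 bases, settings chosen after seeing the data) moved less. The motif settings were not run, since promoter sequence was not used here.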
